A study of Mus musculus with 4 samples.

Results

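Cytosolic ribosomal proteins are the protein part of the ribosome, which translates mRNA in every cell. Those of the 60S (large) subunit carry names beginning with Rpl, those of the 40S (small) subunit names beginning with Rps or the name Rpsa, and Rplp0, Rplp1 and Rplp2 form the stalk of the large subunit that recruits elongation factors. Their mRNAs belong to the class with a 5′ terminal oligopyrimidine (TOP) tract, a run of C and T letters at the start of the message through which growth signals control translation. In the intestine, ribosome production is known to be high in dividing crypt cells and low in the differentiated cells of the crypt surface.

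Every gene probe whose name in the array files begins with Rpl or Rps and a digit, or is Rpsa, Rplp0, Rplp1 or Rplp2, was taken, leaving out the kinases named Rps6k and pseudogenes. This gave 85 of 27251 named genes, read by 145 of the 41174 probes on the array. They comprise 43 genes of the 60S subunit, 31 of the 40S subunit, the 3 stalk genes, 6 paralogs (Rpl3l, Rpl7l1, Rpl22l1, Rpl36al, Rpl39l and Rps27l) and 2 other names, Rps4l and Rps19bp1. The first 77 are called the core genes here. Rps4l is a relative of Rps4x with a non-coding record, and Rps19bp1 encodes a binding partner of the protein of Rps19. Rpl10l had no probe.

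RNA was compared on 4 dual-color Agilent arrays in 2 experiments, all with C57BL/6 mice given tamoxifen, 4 mg per 25 g body weight, once or on 3 consecutive days. In the first, whole tissue of the distal colon of male Myh11CreErt2/Rspo3 fl/fl mice (Rspo3 KO) was compared with that of Myh11CreErt2/Rspo3 +/+ littermates (control, written Rspo3++ in the labels) 2 weeks after tamoxifen, from mice that the methods give as 6 to 8 weeks old. Controls thus also carried the Cre and received tamoxifen, and the Cre is active only in cells that express Myh11, smooth muscle and myofibroblasts. Each array held 1 KO and 1 control mouse, with the dyes reversed between the pairs, so n = 2 pairs. In the second, epithelial cells of Axin2CreErt2/Rosa26-tdTomato mice were sorted 24 h after tamoxifen into tdTomato-positive (Axin2+) and tdTomato-negative (Axin2-) cells, the tdTomato label depending on a Cre driven by Axin2. Cells of 3 mice were pooled. The methods give the mice of the whole study as male and 6 to 8 weeks old, so those of this sort too. The 2 arrays of this sort carry the same pools with the dyes exchanged and count as 1 replicate, so nothing measures the spread between animals and no test was run. A log2 ratio above 0 means more signal in Rspo3 KO or in Axin2+ cells, and where the whole colon was used, fewer cells of a type and less RNA per cell cannot be told apart.

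Ribosomal protein probes were among the brightest on the arrays, and this touches every value below. On the Axin2 arrays their median mean log2 intensity was 15.6, against 8.23 for other genes, and 75 of the members but only 518 other genes reached 13 or more. To count as measured, a gene needed a probe that each array of the experiment read well above background with one dye or both, and its brightest such probe stood for it. On the Axin2 arrays 83 of the 85 genes were measured, all but Rpl3l and Rpl39l. On the Rspo3 KO arrays 55 were, because the extraction software had marked 55 and 59 of the 163 member spots as non-uniform (33.7% and 36.2%, against 0.595% and 0.611% of other spots), and such spots were left out. Of the 30 genes without a value there, 26 had no usable spot for any probe on at least 1 array. Among the 55 with a value, some were read there by a far dimmer probe than on the Axin2 arrays. Examples are Rps4x (mean log2 intensity 6.67 against 15.6), Rpl27 (6.83 against 15.8) and Rps12 (7.28 against 16.2). The KO medians and counts below include such genes. On the Axin2 arrays no member spot was so marked.

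Some probes are shown as printed on the array, in the sense of the mRNA, 5′ to 3′. They are those behind the largest Axin2+ ratios, those of a parent gene and its paralog, and that of Rps4l. After the loess normalisation described below, Rps4l was the lowest member in both experiments. Capitals mark the longest run of letters shared by the probes of Rpl22 and Rpl22l1, which is 6 bases. In mm9, the build of the array files, these probes lie at chr15:79910252-79910826 on the minus strand (Rpl3), chr5:108332860-108333767 (Rpl5), chr9:64022737-64022796 (Rpl4), chr4:151704158-151704217 (Rpl22), chr3:28706197-28706256 (Rpl22l1) and chr6:148304018-148304077 (Rps4l), all but the first on the plus strand. The probes of Rpl3 and Rpl5 span 575 and 908 bases of genome with 60 bases of sequence and therefore cross a splice junction.
Rpl3: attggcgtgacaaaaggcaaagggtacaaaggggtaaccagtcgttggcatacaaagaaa
Rpl5: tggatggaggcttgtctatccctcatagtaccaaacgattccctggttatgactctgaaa
Rpl4: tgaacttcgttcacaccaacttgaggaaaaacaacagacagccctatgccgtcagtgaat
Rpl22: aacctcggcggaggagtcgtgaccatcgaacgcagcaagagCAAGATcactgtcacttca
Rpl22l1: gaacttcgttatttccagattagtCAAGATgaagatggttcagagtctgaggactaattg
Rps4l: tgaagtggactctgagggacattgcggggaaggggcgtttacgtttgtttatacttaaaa
No probes of different member genes shared a run of 20 bases on the same strand. Probes were compared only with each other, and whether a probe also reads the mRNA of a paralog or a pseudogene was not tested.

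Letters around the transcription start were compared in RefSeq promoters of GRCm38.p6, where 57 of the 77 core genes had an entry. An unbroken run of at least 8 letters that were all C or T occurred within 20 bases on either side of the start in 28 of the 57 (49.1%), against 18.4% of all 27025 genes in the table. The same run on the opposite strand occurred in 8.77% of the core genes and 20.2% of all genes. Windows of 7 core genes are printed to show runs of different length. Of these, 5 are from among the higher Axin2 ratios given further on and 2 from among the lower. The windows of Rpl23 and Rps23 hold no run of 8. Capitals mark the longest run of C and T, and the start lies in the middle of each window. The marked runs of Rpl5 and Rpl4 lie wholly before the annotated start and so outside the message. The counts above include such runs.
Rpl5, chr5:107900508-107900547, plus strand: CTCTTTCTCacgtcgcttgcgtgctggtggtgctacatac
Rpl4, chr9:64173367-64173406, plus strand: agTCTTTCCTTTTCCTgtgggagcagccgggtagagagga
Rpl23, chr11:97782420-97782459, minus strand: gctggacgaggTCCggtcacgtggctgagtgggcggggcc
Rps23, chr13:90923102-90923141, plus strand: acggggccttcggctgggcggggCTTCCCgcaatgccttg
Rps6, chr4:86857348-86857387, minus strand: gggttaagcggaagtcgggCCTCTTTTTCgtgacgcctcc
Rpl38, chr11:114668560-114668599, plus strand: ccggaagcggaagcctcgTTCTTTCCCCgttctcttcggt
Rps27, chr3:90213629-90213668, minus strand: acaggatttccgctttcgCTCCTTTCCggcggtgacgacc
Presence of the run did not separate high from low ratios. The median Axin2+ over Axin2- log2 ratio was 0.37 over the 28 genes with the run and 0.40 over the 29 without it, a description with no test.

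The Axin2 sort addresses how the RNA of Wnt-responsive crypt cells differs from that of other colon epithelial cells. After loess normalisation, which sets each probe against other probes of like brightness, the ribosomal protein genes lay above other genes in Axin2+ cells, with medians of the log2 ratio of 0.39 (array 1) and 0.38 (array 2) and, for the mean of the arrays, of 0.38, or 1.31-fold, against -0.01 for all 15840 genes, but this direction flipped to -0.05 when arrays were only centred on their median. On both arrays 73 of the 83 members were above 0 and 3 were below (Rps4l, Rps27l and Rpl21), where 41% and 41.7% of all genes were. The mean ratio of 14 members was past 1.5-fold with the same sign on both arrays, all of them higher, against 7.87% of all genes higher and 6.94% lower, and with median centring no member was. With the software's own log ratios the median was 0.15 and 4 of the 83 members passed, a smaller share than the 17.2% of all genes that were higher past 1.5-fold on that scale. With median centring that share of all genes was 3.14%, and with a loess curve fitted without ribosomal protein probes, where the median was 0.51 and 29 members passed, it was 8.23%. Whether members passed more or less often than other genes thus also depended on the scaling.

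**Figure D1:**
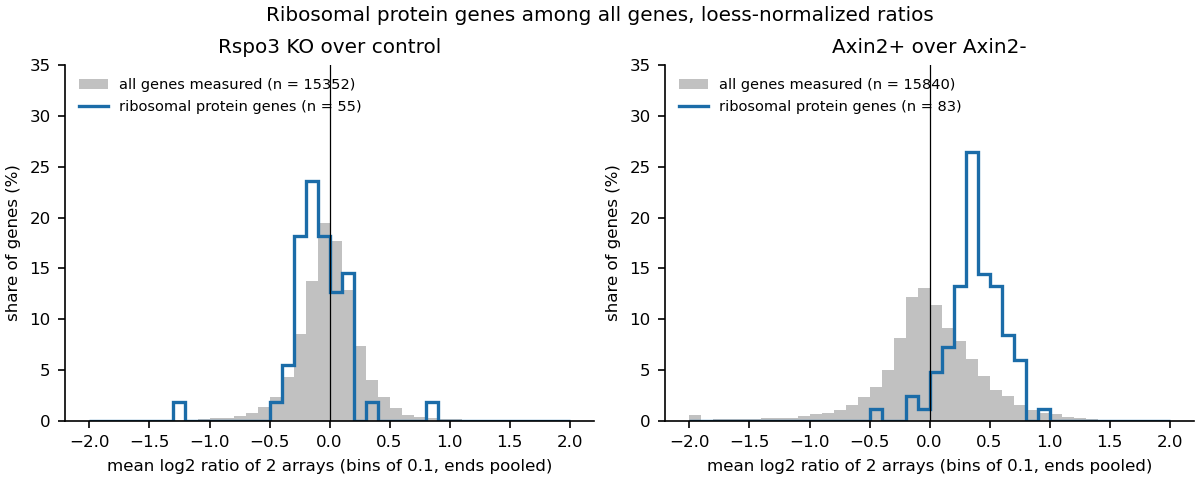
Share of genes (%) in bins of 0.1 of the mean log2 ratio of 2 arrays, for all genes measured (grey) and ribosomal protein genes (blue), Rspo3 KO over control on the left and Axin2+ over Axin2- on the right, loess-normalized. The blue outline is shifted to the right of the grey one in the Axin2 experiment (median 0.38), a shift that median centring turns to -0.05, and slightly to the left in the KO experiment (median -0.11).

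The scalings differ in where they place bright genes, and the ribosomal proteins made up 36.7% of the genes with a mean log2 intensity from 15 to 17. In that band the median of the 61 members was 0.40 and that of the 105 other genes 0.20 after loess. With median centring these were -0.07 and -0.24, with the software's ratios 0.14 and -0.03, and with loess fitted without ribosomal protein probes 0.55 and 0.34. The members thus lay above other genes of the same brightness under all 4 scalings, in this band by 0.16 to 0.21. The same held for the bands from 13 to 14 and from 14 to 15, where 5 and 9 members lay, in 12 of 12 combinations of band and scaling. These combinations are not independent checks. A scaling moves members and other genes of a band largely together, and all rest on the same pools. With median centring, the dye effect stayed in each array (member medians of 1.37 and -1.45) and left only the mean of the dye-reversed arrays to be read.

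**Figure D2:**
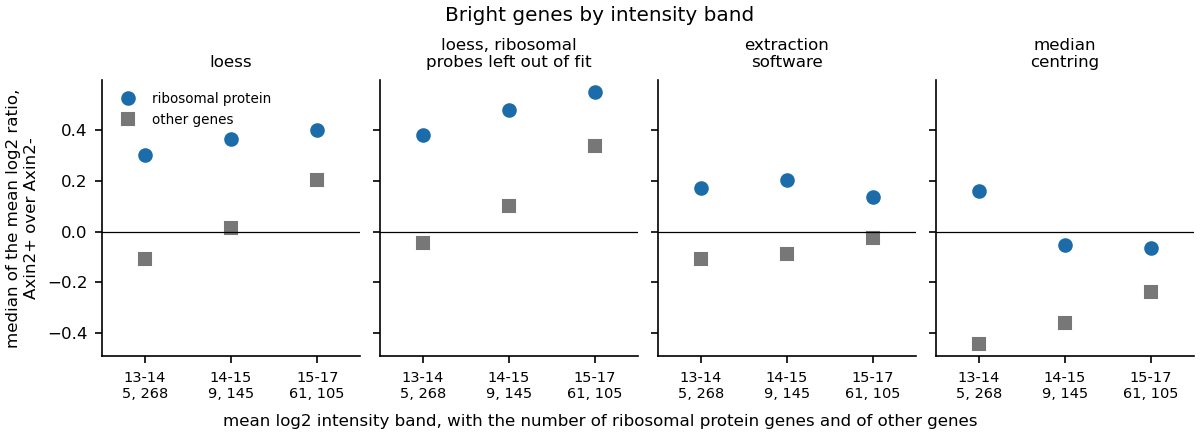
Median of the mean log2 ratio, Axin2+ over Axin2-, of ribosomal protein genes (circles) and other genes (squares) in 3 bands of mean log2 intensity, under 4 scalings. The numbers under each band count ribosomal protein genes and other genes. The circles lie above the squares in every panel, whereas their place relative to 0 depends on the scaling, from 0.40 after loess to -0.07 with median centring in the brightest band.

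The members did not differ alike from Axin2- cells, and their order among themselves was less tied to the scaling than their common level. Across the 83 genes, which share arrays and pools, Pearson's r between the arrays was 0.65, lower than the 0.92 over all genes measured. Spearman's rho of the members' mean ratios after loess with those after median centring was 0.86. With the software's ratios it was 0.87 and with loess without ribosomal protein probes 0.99. Relative to the median of the core genes, 29 core genes were above it and 28 below it under all 4 scalings. The scalings reuse the same spots and pools, so an order kept among them is not an independent check.

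**Figure D3:**
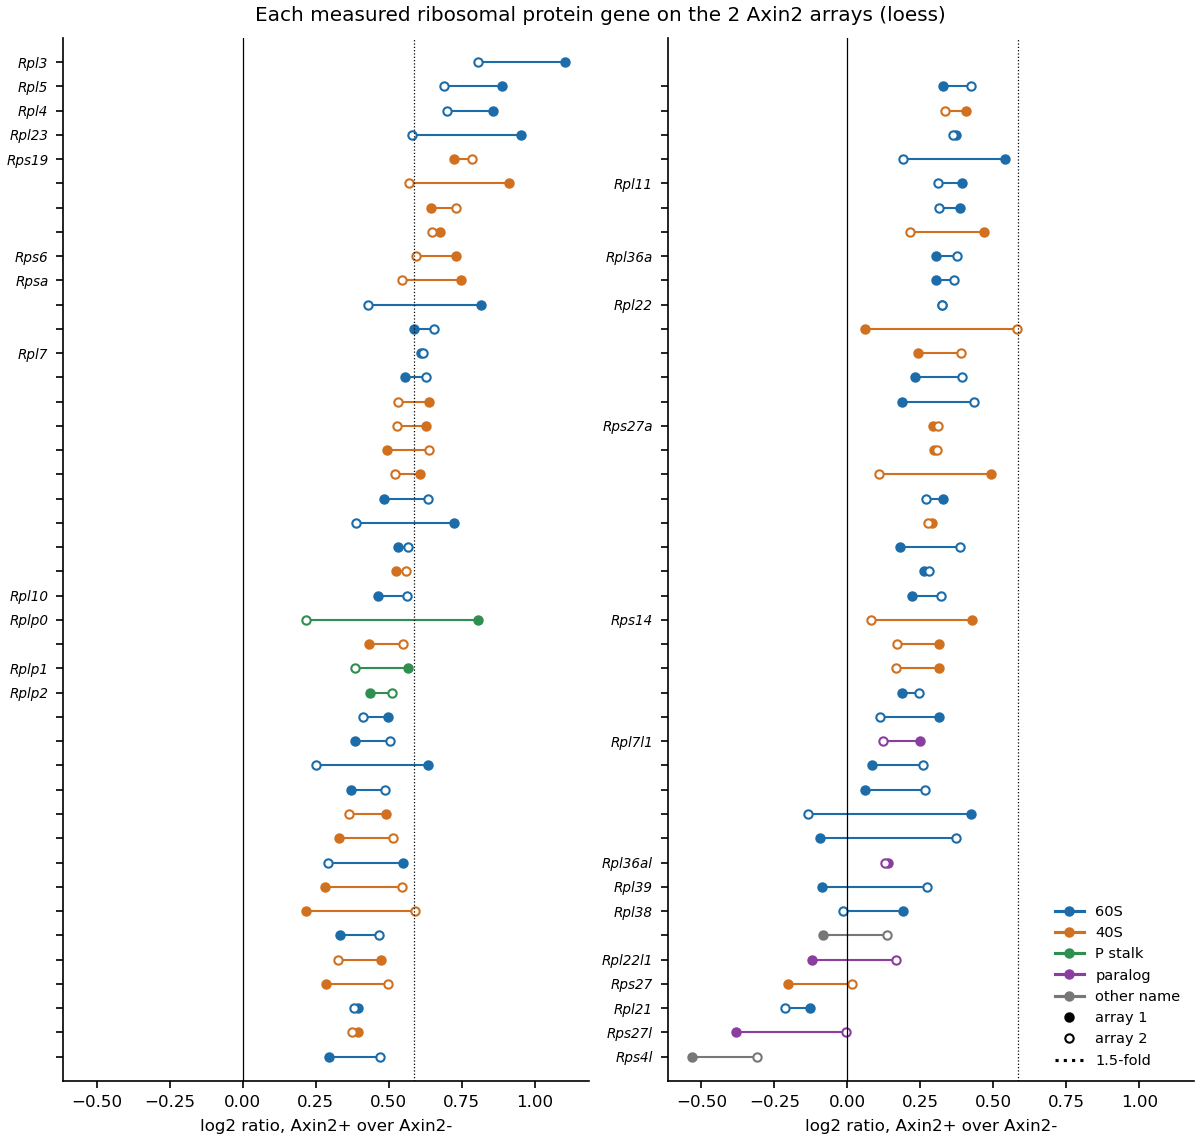
Log2 ratio, Axin2+ over Axin2-, of each of the 83 measured ribosomal protein genes on array 1 (filled) and array 2 (open) after loess, ordered by the mean, coloured by subunit or class, with names only for genes that the rule for named genes took. Rpl3 is highest and Rps4l lowest, most genes lie between 0 and the dotted 1.5-fold line, and with median centring the whole set moves to a median of -0.05.

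At the upper end stood genes of both subunits. Rpl3, which lies at the peptidyl transferase centre of the large subunit, had log2 levels of 15.28 and 15.31 in Axin2+ cells and of 14.17 and 14.50 in Axin2- cells on the 2 arrays. Its log2 ratios were 1.105 and 0.805, or 1.94-fold for the mean, and both Axin2+ levels were above both Axin2- levels. Rpl3 was 0.54 to 0.62 above the core median under the 4 scalings and at a mean of 0.54 also with median centring, so its direction did not depend on the scaling.

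Rpl5, which with Rpl11 and the 5S rRNA forms the particle that restrains Mdm2, had ratios of 0.89 and 0.69. Rpl11 itself had 0.39 and 0.31 by its brightest probe, which was below the core median under all 4 scalings, by 0.03 to 0.07. The order of these genes rests on the probes chosen: the dimmer probe of Rpl11 had 0.89 on both arrays, and that of Rpl5 had 0.56 and 0.16. Rpl4 had ratios of 0.86 and 0.70 and Rpl23, which also binds Mdm2, 0.95 and 0.58. These genes kept a mean above 0 under median centring (Rpl5 0.31, Rpl4 0.48 and Rpl23 0.30) except Rpl11, whose mean there was -0.12.

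In the small subunit, Rps19, the gene most often mutated in Diamond-Blackfan anaemia, had log2 levels of 16.12 and 16.28 in Axin2+ and of 15.40 and 15.49 in Axin2- cells. Its ratios were 0.72 and 0.79, and 0.29 for the mean with median centring. Rps6, the substrate of S6 kinase, had ratios of 0.73 and 0.59 by its brightest probe and Rpsa, also known as the laminin receptor, 0.75 and 0.55. For both genes a second, dimmer probe gave far smaller values, a mean of 0.09 for Rps6 and of 0.02 for Rpsa. The mean log2 intensities of these second probes were only 6.75 and 6.81, against 13.9 and 13.7 for the brightest. Whether their dimness lowers the ratios was not tested. The other members past 1.5-fold after loess, named after their values were seen, were Rps23, Rps3a1, Rps9, Rpl12, Rpl27a, Rpl7 and Rpl6. All 14 were above the core median under all 4 scalings. They were taken for high loess ratios on the same pools, so this is no independent check.

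The core subunits had like medians after loess, 0.37 for the 43 genes of the 60S subunit and 0.40 for the 31 of the 40S subunit, and -0.05 for both with median centring. The stalk genes had means of 0.51 (Rplp0), 0.47 (Rplp1) and 0.47 (Rplp2). The arrays disagreed for Rplp0, at 0.81 and 0.22, and with median centring the 3 genes had a median of -0.02. Rps14, which lies in the region deleted in 5q- syndrome in humans, had ratios of 0.43 and 0.08, and Rps27a, which encodes a ribosomal protein fused to ubiquitin, 0.30 and 0.31, both turning to below 0 with median centring (-0.22 and -0.14).

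At the lower end, Rps27 had log2 levels of 16.02 and 15.80 in Axin2+ and of 16.22 and 15.78 in Axin2- cells. Its ratios of -0.20 and 0.02 did not have the same sign, and it lay 0.47 to 0.54 below the core median under the 4 scalings. The array files place its only probe on chromosome 9, whereas RefSeq has the gene on chromosome 3, and which copy the probe reads was not tested. Rpl38, known for a role in translation of Hox mRNAs in mice, had ratios of 0.19 and -0.02 and lay 0.28 to 0.37 below. Rpl39, of the exit tunnel, had -0.09 and 0.27 and lay 0.30 to 0.31 below. Rpl21, at -0.13 and -0.21, was the only core gene below 0 on both arrays after loess. Its second probe had a mean of 0.10, so the probes of this gene disagreed in sign.

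After loess the measured paralogs lay below the core median, but with the software's ratios and with median centring Rpl7l1 lay above it, by 0.04 and 0.23. Rpl22l1, which can replace Rpl22 in the ribosome, had log2 levels of 14.76 and 15.01 in Axin2+ and of 14.88 and 14.84 in Axin2- cells, with ratios of -0.12 and 0.17. Its parent Rpl22 had 0.33 on both arrays. The difference of the log2 ratios, paralog minus parent, was -0.45 on array 1 and -0.16 on array 2, and for the mean it lay between -0.31 and -0.28 over the 4 scalings. Rps27l, a p53 target in human cells, had ratios of -0.38 and -0.004, and its difference from Rps27 went from -0.17 to 0.14 over the scalings. Rpl7l1 (0.25 and 0.12) and Rpl36al (0.14 and 0.13) lay below Rpl7 (0.61 and 0.62) and Rpl36a (0.30 and 0.38) after loess, but the differences reached 0.03 and 0.02 with another scaling. Only the order of Rpl22 and Rpl22l1 kept its sign under all 4 scalings among these 4 pairs, and none of the differences has a replicate check.

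Rps4l was the lowest member after loess, with log2 levels of 10.12 and 10.21 in Axin2+ cells and of 10.65 and 10.52 in Axin2- cells and ratios of -0.53 and -0.31. Both Axin2+ levels were below both Axin2- levels, and the mean stayed below 0 under every setting tried (-0.54 to -0.31).

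Different probes of a gene mostly agreed in sign: of 44 genes with several measured probes, 40 had all probe means on the same side of 0 after loess. The exceptions were Rpl21, Rps4x, Rps19bp1 and Rpl7l1. For Rps4x the brightest probe had ratios of 0.61 and 0.52, and the other, with no position in the array files, -0.14 and 0.04. That other probe was far dimmer, at a mean log2 intensity of 6.37 against 15.6. The opposite case was Rps12, where a dim probe was far above the brightest one (1.03 and 1.29 against 0.64 and 0.53).

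Other genes of the translation machinery were read from lists. Of 23 measured translation factors and other TOP mRNAs, 22 were higher on both arrays after loess, 8 past 1.5-fold, with a median of 0.43, which was 0.04 with median centring. The highest were Npm1 (1.29 and 1.31), which encodes nucleophosmin, a nucleolar chaperone, and Hnrnpa1 (1.19 and 1.29), a splicing regulator. Vim, which encodes the filament protein vimentin of mesenchymal cells, was the only one lower (-1.01 and -0.91). Of 30 ribosome biogenesis genes, 24 were higher on both arrays and 11 past 1.5-fold, with a median of 0.44. This list kept its level with median centring, at 0.48, and was led by Ncl (1.38 and 1.54), which encodes the nucleolar protein nucleolin, and Myc (1.17 and 1.28), a transcription factor that drives ribosome production. Bysl (-0.25 and -0.27) and Ubtf (-0.04 and -0.12), a factor of rDNA transcription, were lower on both arrays.

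The mitochondrial ribosome did not move with the cytosolic one: of 78 measured Mrpl and Mrps genes 18 were higher and 35 lower on both arrays, with a median of -0.04 after loess and -0.22 with median centring. Mrpl50 (0.67 and 0.60) and Mrpl19 (0.19 and 0.40) had the largest rises and Mrpl20 (-0.64 and -0.52) and Mrps21 (-0.65 and -0.42) the largest falls.

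**Figure D4:**
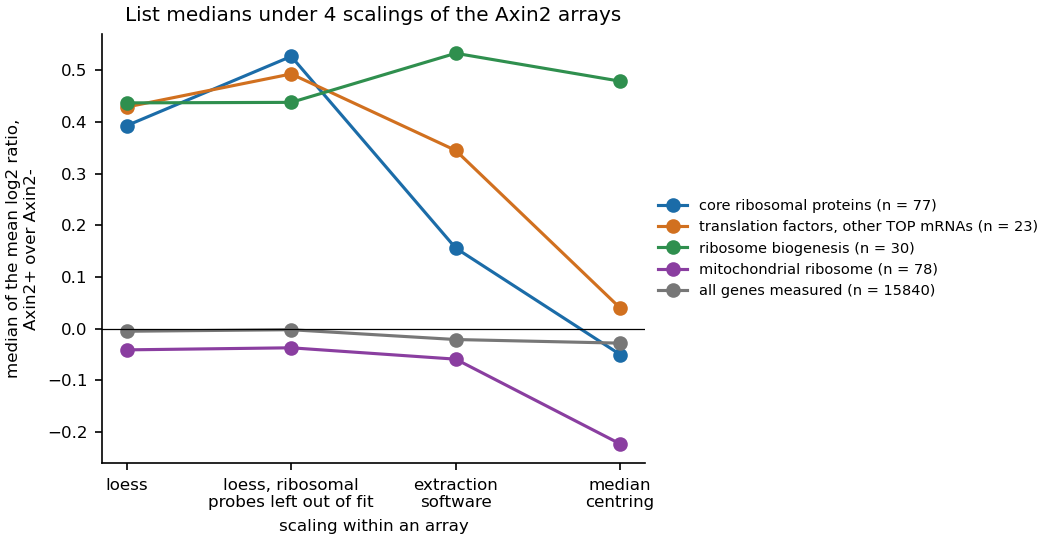
Median of the mean log2 ratio, Axin2+ over Axin2-, of 4 gene lists and of all genes measured, under 4 scalings of the arrays; lines only join points of a list. The median of the core ribosomal proteins moves from 0.39 after loess to -0.05 with median centring, whereas that of ribosome biogenesis genes stays between 0.44 and 0.53.

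Cell type markers moved with the sort and stand beside these values. Axin2, on which the label rests, had ratios of 1.35 and 1.29. The 6 stem cell markers had a median of 1.22 and the 6 markers of proliferating crypt cells one of 0.86, Mki67 (Ki67) being highest at 1.96 and 2.12. The 6 surface enterocyte markers, at -2.76, the 6 goblet cell markers, at -1.53 with Muc2 above 0, and the 6 enteroendocrine markers, at -2.34, were lower in Axin2+ cells. All these list medians kept their sign under the 4 scalings. The part of cell type in the ribosomal protein values was not tested.

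The KO experiment addresses how loss of Rspo3, an activator of Wnt signalling, from Myh11-expressing cells changes RNA in the colon. No ribosomal protein gene was called. By limma with Benjamini-Hochberg adjustment over 15352 genes, 0 of the 55 measured members passed an adjusted p of 0.05, where 0.234% of all genes did, and 2 members had an unadjusted p under 0.05. The median log2 ratio of the members was -0.09 in pair 1 and -0.18 in pair 2, against -0.01 for all genes by the mean, and the median of the means was -0.11, or 0.928-fold, with a range of -0.18 to -0.07 over all settings tried. In both pairs 5 members were higher and 17 lower, where 20.2% and 23.9% of all genes were. Opposite ways went 33 of the 55 members and 8571 of all 15352 genes. Over the 55 genes, which share arrays, the ratios of pair 1 and pair 2 had a Pearson's r of -0.079 (Spearman's rho of -0.28). Over all genes Pearson's r was 0.033, so the lack of agreement between the pairs was not particular to the members.

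**Figure D5:**
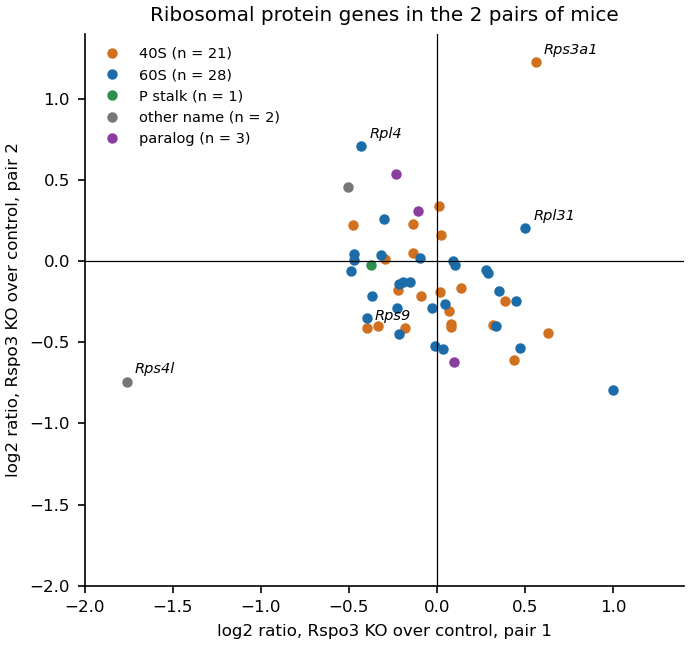
Log2 ratio, Rspo3 KO over control, of the 55 measured ribosomal protein genes in pair 1 (horizontal) and pair 2 (vertical), coloured by subunit or class. Points scatter around 0 with no common line (r of -0.079, against 0.033 over all genes measured). Rps3a1 and Rps4l stand apart, of which Rps3a1 falls to a mean of -0.01 with non-uniform spots kept.

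The targeted gene could not serve as a check, since neither of the 2 Rspo3 probes was well above background on the KO arrays. Among 6 stem cell markers, 5 had ratios below 0 in both pairs, Lgr5 at -1.27 and -2.61, though no list member was called (smallest limma adjusted p 0.107).

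Rps4l and Rps3a1 were the only members past 1.5-fold alike in both pairs, 1 lower and 1 higher, where 2.47% of all genes were lower and 1.85% higher (4.32% together). Rps4l had log2 levels of 11.88 and 11.91 in the KO mice and of 13.64 and 12.65 in the control mice. Its ratios were -1.76 and -0.74, and both KO levels lay below both control levels. The mean of -1.25 ± 0.72 (SD, n = 2 pairs), with a standard error of 0.292 in limma, gave an adjusted p of 0.324 and was not called. Rps4l was thus the lowest member in both experiments after loess, by the same probe.

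Rps3a1, a protein of the small subunit, had log2 levels of 14.64 and 15.03 in the KO mice and of 14.08 and 13.81 in the control mice. Its ratios were 0.56 and 1.22, with a mean of 0.89 ± 0.47 (SD, n = 2 pairs) and a limma adjusted p of 0.569. The value rests on 1 of its 2 probes: the brighter probe was marked non-uniform in pair 2 and had 0.04 in pair 1, and with such spots kept the mean was -0.01.

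The next largest rises were Rpl31 (0.50 and 0.20), Rps15 (0.01 and 0.34), Rps28 (0.02 and 0.16) and Rpl15 (0.09 and 0.001). Rps28 was read from its dim probe, and with non-uniform spots kept its mean was -0.17 from a bright one. The other probe of Rpl31 went the opposite way, with a mean of -0.62. Among the largest falls after Rps4l were Rps9 (-0.40 and -0.41), Rpl36 (-0.40 and -0.35) and Rpl32 (-0.22 and -0.45). Each had a limma adjusted p of 1. That of Rps9 was read from its dim probe, and with non-uniform spots kept its mean was 0.03 from the bright one.

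The genes that led in Axin2+ cells had no common direction in the KO mice, where Rpl5 and Rps19 were read by other probes. Rpl3 had ratios of -0.23 and -0.29, Rpl5 of 0.34 and -0.40, Rpl4 of -0.43 and 0.71, and Rps19 of 0.32 and -0.39. Of these only Rpl3 had the same sign in both pairs, and its mean of -0.26 had a limma adjusted p of 1. Rpl22l1 had -0.23 and 0.54, and Rpl22 -0.22 and -0.14. The pair Rps27 and Rps27l, as well as Rpl38, Rps14, Rplp1 and Rplp2, had no usable value, and Rplp0 had -0.37 and -0.02. The spot of Rps27a was far dimmer on array 2 (mean log2 intensity 11.3) than on array 1 (15.4), a gap over 2 that 36 measured probes of the array showed, and its ratios of 0.38 and -0.25 are given with that limit.

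With non-uniform spots kept, an alternative chosen after seeing the data, 83 members were measured on the KO arrays. Of these 3 were higher and 30 lower in both pairs, with a median of -0.16 (-0.05 and -0.27 in the pairs), and again none was called. The shares of all genes are given only for the main setting, 20.2% higher and 23.9% lower in both pairs. Past 1.5-fold alike, 0 members were higher and 2 lower, where the main setting had 1 of each. The values that follow are those of the main setting, with non-uniform spots left out. In the bands of intensity from 13 upwards the member medians lay below those of other genes, by 0.05 to 0.22. This held in 12 of 12 combinations of band and scaling, which are not independent checks, as on the Axin2 arrays. Among the other lists, translation factors and other TOP mRNAs had a median of -0.12 with 0 higher and 8 lower in both pairs of 19 measured, ribosome biogenesis genes one of -0.05 with 2 higher and 5 lower of 30, and mitochondrial ribosomal genes one of -0.01 with 13 higher and 12 lower of 78, and none was called. Named by the rule from these lists were Hnrnpa1 (-0.42 and -0.98), Eif3f (-0.43 and -0.39), Myc (0.71 and 0.24), Rrp12 (0.01 and 0.18), Ncl (-0.63 and -0.19), Ltv1 (-0.23 and -0.38), Mrps6 (0.46 and 0.18), Mrpl50 (0.45 and 0.09), Mrpl55 (-0.45 and -0.35) and Mrps35 (-0.32 and -0.28).

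Marker lists of other cells had medians on both sides of 0 in the whole colon. Of 5 measured B cell markers 4 had ratios below 0 in both pairs, with a median of -0.64, and Ms4a1 was called (-2.75 and -2.27, limma adjusted p 0.0141). Of 5 T cell markers 4 had ratios below 0 in both pairs, with a median of -0.52, and of 5 enteroendocrine markers 3 did, with a median of -0.41. On the other side, 5 of 6 macrophage markers (median 0.24), 4 of 5 smooth muscle markers (0.24) and 2 of 6 fibroblast markers (0.30) had ratios above 0 in both pairs. No marker of these 5 lists was called. Of 6 proliferating crypt markers 5 went opposite ways in the pairs and 1 was lower, with a median of -0.017. Medians were -0.012 for 5 epithelium, 0.085 for 3 goblet and 0.354 for 3 surface enterocyte markers, most of which also went opposite ways. None of these was called either. The part of cell composition in the member medians was not tested.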

How the data were processed

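The authors labelled RNA in 2 colours, hybridised and scanned the arrays, and ran Agilent Feature Extraction (version 11.5.1.1 per the file headers). The deposited files give, per spot and dye, linear mean and background intensities. They also give a log10 ratio by the software, repeated in the series' value table, and its error, a score of the software's error model that the authors deposited beside it. Here, intensities were corrected with normexp (offset 50, background-outlier spots kept out of the fit) and loess in limma 3.58.1 (R 4.3.3), outlier spots were left out, ratios were turned to Rspo3 KO or Axin2+ on top, and spots of a probe were averaged. Levels are log2 values per channel after Aquantile. The KO arrays were tested with limma (1 residual degree of freedom), the Axin2 arrays not at all. The fit was checked on simulated data with changes larger than those of the members, so its power for smaller changes was not checked. The number of arrays limits precision. Labels and methods differ on RNA extraction and on whether colon or distal colon was used.

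Members, lists and the rule for named genes were chosen with earlier results of these data known. Named were the 5 largest rises and falls alike per experiment, genes past 1.5-fold where few, paralog pairs, stalk genes and fixed names, and 2 rises and falls per list; 1 gene so chosen is not reported here. Of 145 member probes, 10 bore a member name only in the KO files. Alternatives were other background and scaling choices, filters, probe rules, weights, thresholds and arrays left out.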

Additional observations from a re-analysis of the deposited data

How the results depend on the processing

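The number of members called in the KO mice was 0 under all 18 alternatives, and the KO median kept its sign, between -0.181 and -0.069. Leaving out a pair gave KO medians of -0.181 and -0.094 and 3 to 6 members past 1.5-fold, in place of 2; that count was 1 over core genes and 1 at 2-fold. The KO fit is itself paired, since each ratio is taken within a pair of mice on 1 array, and no further block could be added. The Axin2 median was 0.384 after loess. It reversed to -0.052 with median centring, and was 0.149 with the software's log ratios and with the series' value table, 0.511 with loess fitted without ribosomal protein probes, 0.39 without background correction, 0.36 with an offset of 16, 0.377 without the filter on dim probes, 0.367 for the mean over probes, 0.393 over core genes and 0.377 over names in both annotation versions, the last chosen after seeing the data. The 14 members past 1.5-fold became 0 with median centring, 4 with the software's ratios and with the value table, 29 with loess fitted without ribosomal protein probes, 28 of 138 counting every probe, and 0 at 2-fold. The share of all genes higher past 1.5-fold was 7.87% after loess, 3.14% with median centring, 17.2% with the software's ratios and the value table, 8.23% with loess fitted without ribosomal protein probes and 6.99% counting every probe. No such share is given at 2-fold, so the 2-fold counts have nothing to be set against. The cause of these shifts was not tested. Of the named genes, 17 of 35 in the Axin2 and 8 of 27 in the KO experiment kept their sign under every alternative, and 17 of 35 turned with median centring. Signals not well above background kept 2 member genes without a value on the Axin2 arrays.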
